A study of Mus musculus with 5 samples.

Results

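The common monocyte progenitor (cMoP) was set against the monocyte-dendritic cell progenitor (MDP), the cell from which it arises, on 2 of the 5 expression arrays made from wild type C57Bl/6 mouse bone marrow. A gene entered the comparison where the higher of its values on the cMoP and MDP arrays reached 6.27, the median of all gene values over the 5 arrays (the floor). Of 19938 named genes 10235 did so, and all of them are members. Each population has 1 array, so there is no spread between replicates and no test, and every difference describes these 2 arrays only.

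The cMoP was sorted as Lin- CD115+ CD117+ CD135- cells and the MDP as Lin- CD115+ CD117+ CD135+ cells, so in the labels the gates differ in CD135 alone. The labels list no Ly6C for the cMoP gate, do not spell out the lineage markers, and give no age, sex or number of mice and no pooling. The other arrays hold the common dendritic cell progenitor (CDP, Lin- CD115+ CD117int CD135+), the classical monocyte (Lin- CD115+ Ly6C+ TremL4-) and the nonclassical monocyte (Lin- CD115+ Ly6C- TremL4+). All cells were untreated, and the study describes the sorts as over 95% pure. In sorted populations, a smaller share of cells that make a transcript and less of it in each cell cannot be told apart.

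Mononuclear phagocytes descend from marrow progenitors that carry CD115, the receptor for colony-stimulating factor 1. The MDP can still give rise to dendritic cells, whereas the cMoP is known for making monocytes and, through them, some macrophages. Monocyte production is governed by transcription factors such as PU.1, IRF8, KLF4 and the C/EBP family, and it runs with the building of granules, of the oxidant-producing NADPH oxidase and of receptors for microbes. CD135, the receptor for Flt3 ligand, is kept by cells that can still enter the dendritic or lymphoid lines.

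Of the genes behind the gates, Flt3, which encodes CD135, read 6.40 in cMoP and 10.75 in MDP, a difference of -4.35 on the log2 scale, and this value checks the sort rather than adding a finding. On the remaining arrays Flt3 read 10.74 in CDP, 6.74 in the classical monocyte and 5.77 in the nonclassical monocyte. Csf1r, which encodes CD115, read 10.03 in cMoP and 10.11 in MDP, and Kit, which encodes CD117 and is part of both gates, read 9.37 in cMoP and 10.11 in MDP. The Kit difference of -0.74 lies beyond the 5th percentile of all genes (-0.61), though the labels give both gates as CD117+. Treml4, a marker of nonclassical monocytes, lay under the floor in both progenitors, at 5.72 in cMoP and 5.02 in MDP. Ly6c1 and Ly6c2 were not analysed here, since no probe set named either of them alone.

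Most genes had close values in the 2 progenitors. The median difference, cMoP minus MDP, was 0 log2 units and the median absolute difference 0.19. In 84.8% of the genes the values lay within 0.5 log2 units, and in 843 genes (8.24%) they were identical to the last digit. Positive differences numbered 5100 and negative ones 4292. The middle of the distribution was narrow, with the 5th percentile at -0.61 and the 95th at 0.60.

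A gene was called higher or lower where the difference reached 1 log2 unit, which is 2-fold. By this rule 147 genes (1.44%) were higher in cMoP and 143 genes (1.4%) were lower. At 2 log2 units, which is 4-fold, 23 genes (0.225%) were higher and 20 (0.195%) lower, and at 1.5-fold 565 (5.52%) were higher and 564 (5.51%) lower. Of the higher genes 37 had MDP under the floor, and of the lower genes 64 had cMoP under it. Where a fold is given for such a gene it is a bound, in which the floor replaces the lower reading. Elsewhere the readings are printed as they stand, and a gap that reaches under the floor is larger than that bound. A gene past the floor on 1 array alone had to be higher on that array, so the counts and medians of the lists below describe them and support nothing. Centring each array on the median of all its probe sets, which include those without a symbol, gave 196 higher and 106 lower genes. Centring on the median of named genes, chosen after the data were seen, gave 151 higher and 141 lower. The even split thus depends on the scaling.

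**Figure D1:**
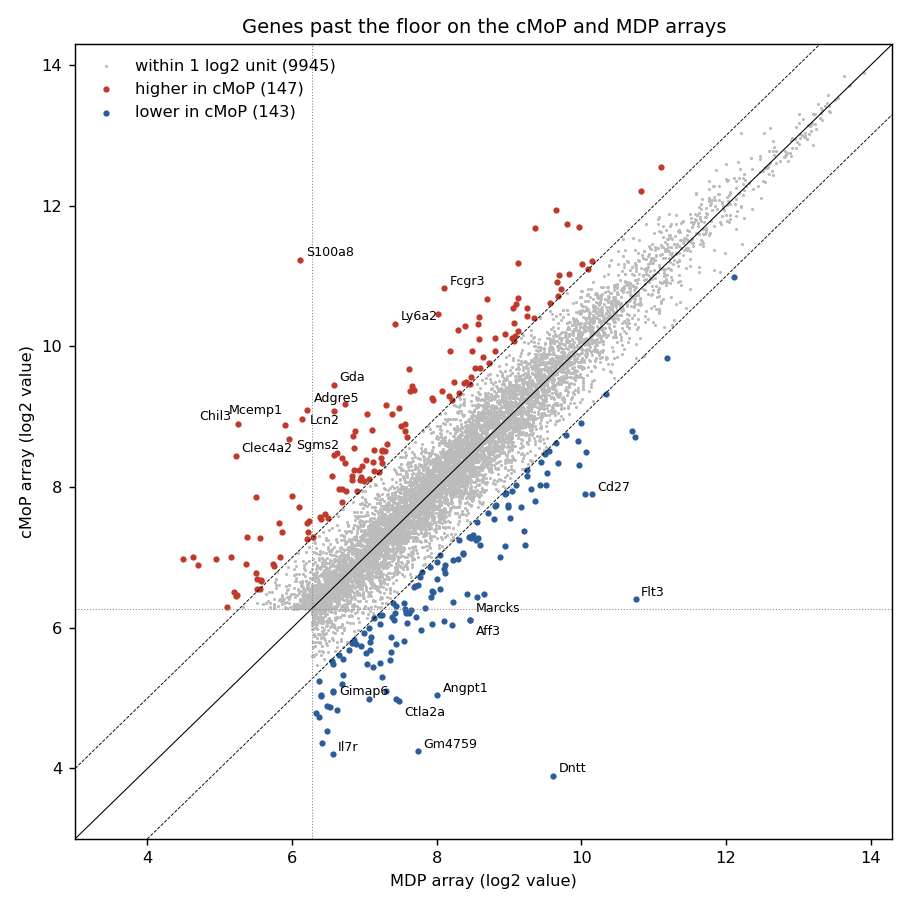
Log2 value of each of the 10235 genes in cMoP (vertical axis) against MDP (horizontal axis), with 147 genes higher in cMoP in red and 143 lower in blue. Dashed lines mark differences of 1 log2 unit and dotted lines the floor of 6.27. S100a8 and Chil3 lie farthest above the diagonal, and Dntt and Flt3 farthest below it, where the lower values of S100a8, Chil3 and Dntt are under the floor.

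The threshold was crossed by a continuum of genes. On the higher side Tmbim6 (1.007) and Zbtb7b (1.002) were the last genes counted. On the lower side Capn2 (-1.003) and Lpp (-1.002) were the last counted, while Il6st, the signalling chain shared by the interleukin 6 family of receptors, stayed just outside at -0.99. At the floor Il21r, with 6.27 in both progenitors, was the last gene to enter.

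The direction of the calls changed with the level of the gene. Genes were ranked by their mean level over the 2 progenitors and cut into 4 parts of near equal size. In the lowest part, 36 were higher and 64 lower in cMoP. The highest part had 45 higher and 16 lower. The middle parts were near even, with 38 higher and 37 lower in the second and 28 higher and 26 lower in the third.

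The only repeat of a gene within an array was a further probe set. Among 642 genes past the floor that had others, 1083 further probe sets differed from the one used by a median of 0.10 log2 units in their cMoP minus MDP difference. The gap exceeded 1 log2 unit in 12 of them (1.11%). The called genes with further probe sets numbered 18. All 22 of those probe sets had the sign of the call, and 15 also passed 1 log2 unit. A further probe set of Pgam1 and that of Snora30 had the same values as the one used. Their agreement adds nothing, and such copies were not removed from the counts. Ifitm1, for example, passed the threshold on every probe set past the floor.

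Genes of innate defence led the positive side. S100a8, a subunit of the antimicrobial protein calprotectin, had the largest difference, with 11.23 in cMoP and 6.12 in MDP. It read 7.14 in CDP, 12.64 in the classical monocyte and 7.86 in the nonclassical monocyte, so the cMoP array stood next to the classical monocyte and apart from the other progenitors. Chil3, a chitinase-like protein secreted by myeloid cells, read 8.90 in cMoP and 5.26 in MDP, at least 6.18-fold higher, and 12.80 in the classical monocyte. By such bounds S100a8 (at least 31.2-fold) still came first, while Chil3 came after Ly6a2 (7.47-fold). Clec4a2, an inhibitory C-type lectin receptor, read 8.44 in cMoP and 5.22 in MDP, at least 4.52-fold higher.

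Surface and enzyme genes filled the next places. Mcemp1, which encodes a mast cell-expressed membrane protein, read 8.88 in cMoP and 5.90 in MDP. Adgre5, which encodes the adhesion receptor CD97, read 9.10 in cMoP and 6.20 in MDP. Gda, the guanine deaminase of purine breakdown, read 9.45 in cMoP and 6.58 in MDP, which is 7.35-fold. All 3 genes were higher still in the classical monocyte, at 11.24 for Mcemp1, 11.71 for Adgre5 and 10.71 for Gda. Ly6a2, a gene of the Ly6 family, read 10.32 in cMoP and 7.42 in MDP. Sgms2, a sphingomyelin synthase, read 8.69 in cMoP and 5.96 in MDP, whereas its relative Sgms1 ran the other way, with 6.73 in cMoP and 7.76 in MDP.

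Of the rest of the 30 largest positive differences, Aoah, which inactivates lipopolysaccharide, read 8.80 in cMoP and 6.87 in MDP. Sema4a, a semaphorin of the cell surface, read 9.04 in cMoP and 7.03 in MDP, and Rmrp, the RNA of a ribonuclease complex, read 10.23 in cMoP and 8.29 in MDP. Rmrp read 8.93 on the other 3 arrays, identical to the last digit. Such a tie over 3 or more arrays occurred in 1358 genes past the floor (13.3%), and in 2 of the higher and 0 of the lower genes. The sources used here do not give the origin of these ties. Gm9733, which has no role given here, read 7.002 in cMoP and 4.634 in MDP.

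Among the 30 largest negative differences were several genes that stand in none of the lists described below. Calcrl, a receptor for calcitonin-related peptides, read 7.38 in cMoP and 9.20 in MDP. Mc5r, a melanocortin receptor, read 5.30 in cMoP and 7.24 in MDP, and Rtn4rl1, a receptor related to that for Nogo, 5.97 in cMoP and 7.78 in MDP. Prrg4, a membrane protein, read 5.54 in cMoP and 7.36 in MDP, so these 3 fell under the floor in cMoP. Gm4759 (4.24 in cMoP and 7.75 in MDP), Phxr4 (4.53 in cMoP and 6.48 in MDP), I730030J21Rik (8.71 in cMoP and 10.74 in MDP) and 9030619P08Rik (6.49 in cMoP and 8.42 in MDP) carry no role in the tables used.

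**Figure D2:**
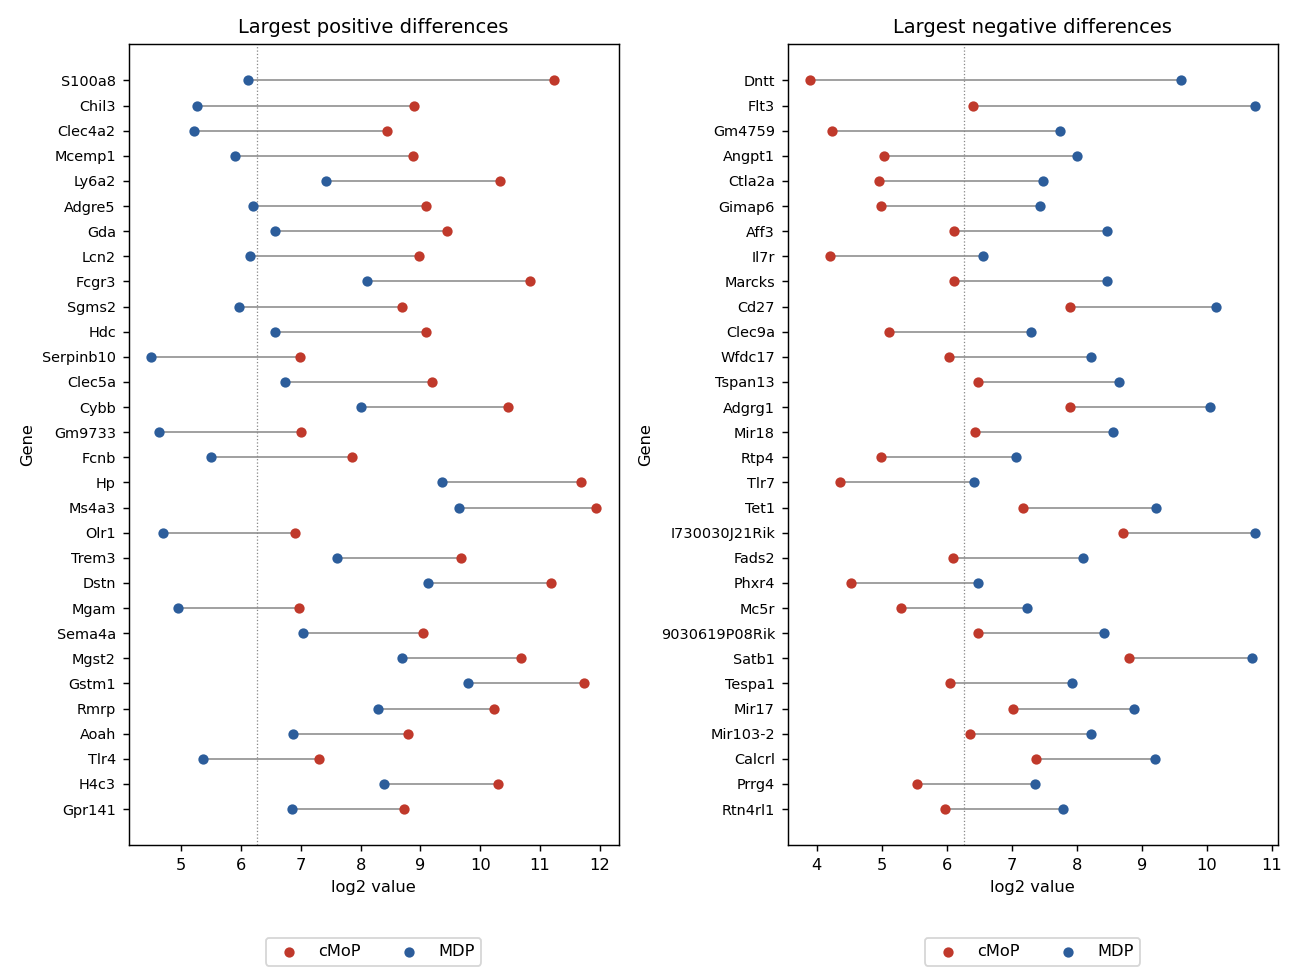
Log2 values of the 30 genes with the largest positive differences (left) and the 30 with the largest negative differences (right), with cMoP in red and MDP in blue, ordered by difference from the top. The dotted line is the floor of 6.27. S100a8 has a difference of 5.12 log2 units and Dntt one of -5.71, and several genes have their lower point left of the line.

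Primary granules are the first granules of granulocyte and monocyte precursors. The list of this name holds genes of their proteins, and also genes whose products are not granule cargo, such as Hdc, Ms4a3, Mgst2 and Gstm1. All 18 members passed the floor, 9 were higher in cMoP and 0 lower, and the median difference was 1.14, beside 0 over all genes. These values describe the mixed list and not the granule proteins alone. Hdc, the enzyme that makes histamine, read 9.09 in cMoP and 6.57 in MDP. It stayed between 5.80 and 5.85 on the other 3 arrays, so MDP was just past the floor and the rest lay under it. Ms4a3, a membrane protein known as a mark of granulocyte-monocyte progenitors and their progeny, read 11.94 in cMoP and 9.65 in MDP, a 4.90-fold difference.

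The enzymes of these granules had differences of unequal size. Elane, neutrophil elastase, read 12.55 in cMoP and 11.10 in MDP, and Prss57, a related protease, read 9.94 in cMoP and 8.18 in MDP. Prtn3, proteinase 3, missed the threshold with 13.04 in cMoP and 12.21 in MDP, as did Ctsg, cathepsin G, with 13.03 in cMoP and 12.52 in MDP. Mpo, myeloperoxidase, was nearly level at 13.58 in cMoP and 13.41 in MDP.

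Further members past the threshold included a lectin and membrane proteins. Fcnb, a ficolin that binds microbial sugars, read 7.86 in cMoP and 5.50 in MDP. Nkg7, a granule membrane protein, read 11.70 in cMoP and 9.97 in MDP, and Cd63, a tetraspanin of granule and lysosome membranes, read 10.10 in cMoP and 8.58 in MDP. Mgst2, a microsomal glutathione transferase, read 10.68 in cMoP and 8.69 in MDP. Calr and Plac8 hardly differed, with Calr at 11.99 in cMoP and 11.96 in MDP and Plac8 at 12.72 in cMoP and 12.66 in MDP.

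Genes of the later granules were mixed. Of 21 measured members of the secondary and tertiary granule list only 10 passed the floor, 6 of them higher in cMoP and 0 lower, and the median difference was 1.54. Of these 10, 4 passed through the cMoP array alone and so had to be higher there. The 6 at or above the floor on both arrays also had a median of 1.54, and all 21 measured members one of 0.14. The 6 higher members include Ltb4r1, a leukotriene receptor, and Chil3, Hp and Lyz2, which also stand in the classical monocyte list. These values describe a mixed list and not the later granules alone. Lcn2, the iron-scavenging lipocalin, read 8.97 in cMoP and 6.14 in MDP. Hp, haptoglobin, read 11.68 in cMoP and 9.36 in MDP, and Lyz2, the lysozyme of myeloid cells, read 12.21 in cMoP and 10.82 in MDP. Of the genes known from neutrophils, Ly6g (4.69 in both progenitors), Ltf (4.78 in cMoP and 4.70 in MDP), Ngp (5.09 in cMoP and 5.34 in MDP), Mmp9 (5.27 in cMoP and 4.97 in MDP) and Retnlg (4.70 in cMoP and 4.73 in MDP) lay under the floor. Others reached it with small differences, with Mmp8 at 7.02 in cMoP and 7.16 in MDP, Cd177 at 6.89 in cMoP and 6.42 in MDP, and Camp at 6.29 in cMoP and 6.19 in MDP, where cMoP alone was past it.

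The classical monocyte list had 24 members past the floor, of which 11 were higher in cMoP and 0 lower, and the median difference was 0.62. Of these 24, 4 passed through the cMoP array alone and so had to be higher there. The 20 past the floor on both arrays had a median of 0.54. Tgfbi, a matrix protein made by monocytes, read 9.13 in cMoP and 7.47 in MDP. F10, coagulation factor X, read 9.16 in cMoP and 7.30 in MDP, and Mgst1, a glutathione transferase, read 10.32 in cMoP and 8.57 in MDP. Trem3, an activating receptor of myeloid cells, read 9.68 in cMoP and 7.61 in MDP. Ifitm6 and Ms4a6d were the remaining members past the threshold that have not been named, with Ifitm6 at 8.51 in cMoP and 7.28 in MDP and Ms4a6d at 6.67 in cMoP and 5.57 in MDP. Not every monocyte gene differed. Ccr2, the receptor that lets monocytes leave the marrow, read 10.37 in cMoP and 10.25 in MDP, F13a1 11.40 in cMoP and 11.38 in MDP, and Emb 12.02 in cMoP and 12.12 in MDP. The nonclassical list had 11 members past the floor, 2 higher and 0 lower, and a median of 0.00. Its higher members were Cebpb and Fcgr4, and Fcgr4 only just passed the floor with 6.30 in cMoP and 5.10 in MDP.

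Calcium-binding proteins of the S100 and annexin families were higher as a group. Of 17 past the floor 6 were higher, 0 lower, and 15 had a positive difference, with a median of 0.75. S100a9, the partner of S100a8, read 8.41 in cMoP and 6.69 in MDP, and S100a1 read 9.27 in cMoP and 7.93 in MDP. Anxa1, an annexin known for damping inflammation, read 10.42 in cMoP and 8.59 in MDP. Anxa3 and Anxa5 passed the threshold narrowly, at 10.81 in cMoP and 9.72 in MDP for Anxa3, and 10.62 in cMoP and 9.56 in MDP for Anxa5. S100a6 came just short at 10.41 in cMoP and 9.43 in MDP.

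**Figure D3:**
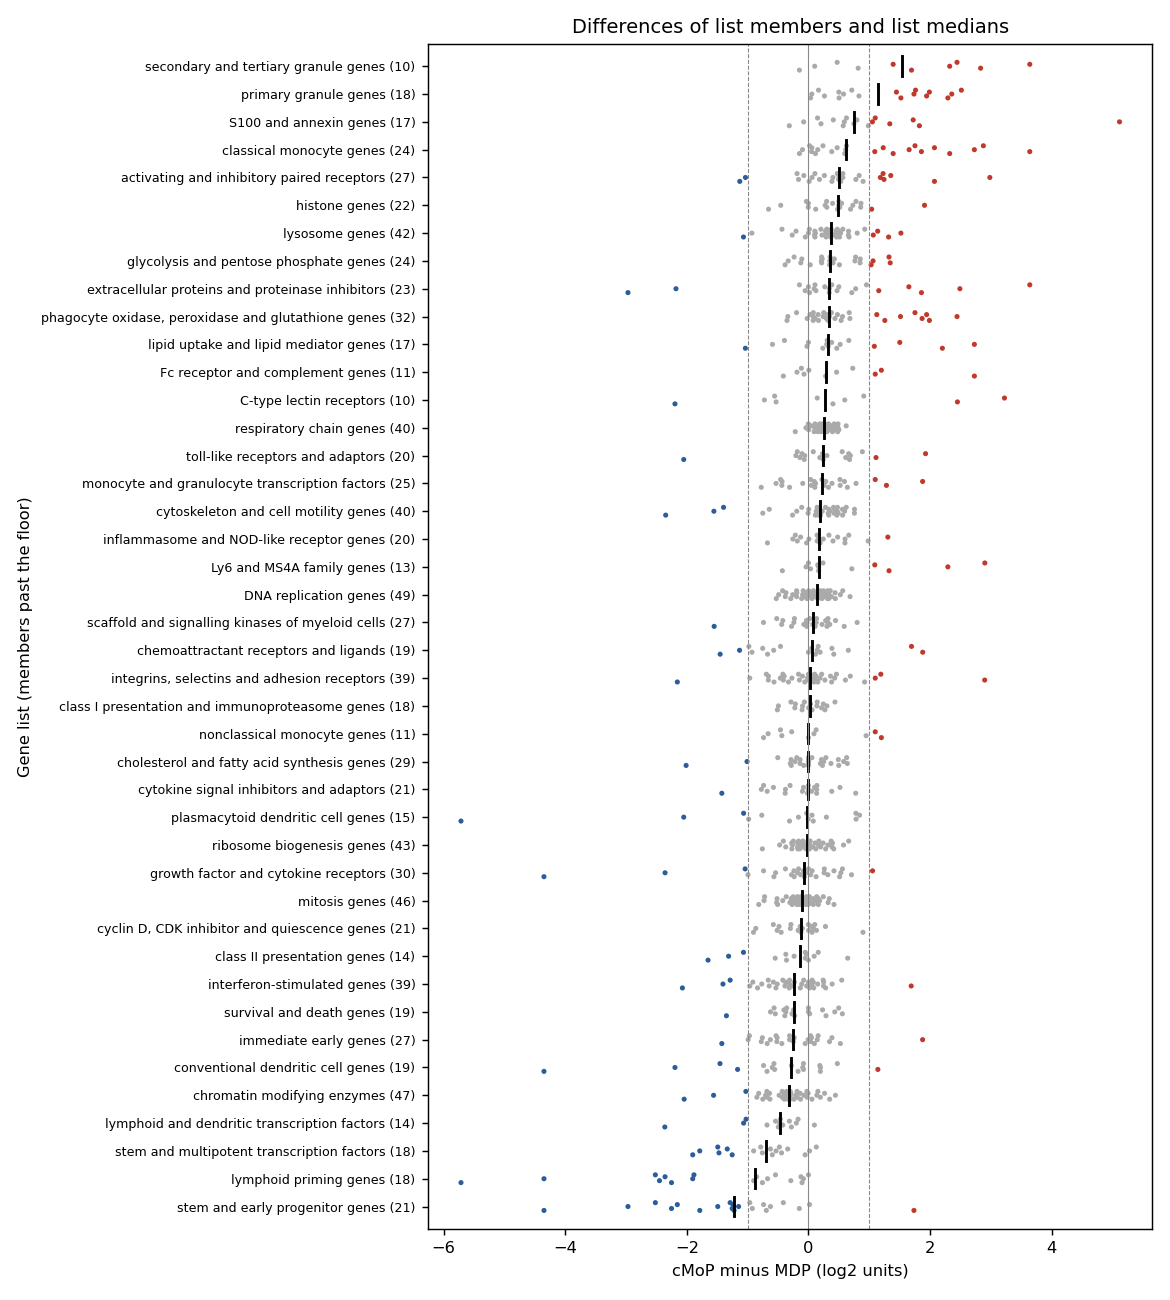
Difference, cMoP minus MDP, of each member past the floor (points) and the median (black bar) of each list with at least 10 such members, whose number is in brackets. Red points are at or above 1 log2 unit and blue points at or below -1. The lists named for granules, which also hold other genes, lie at the top with medians of 1.54 and 1.14. The stem and early progenitor list is at the bottom with -1.22. Over all measured members the secondary and tertiary granule list has a median of 0.14, and the stem and early progenitor list one of -0.46. Members that passed the floor on 1 array alone are included, and had to be higher on that array.

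Of 25 transcription factors of monocytes and granulocytes past the floor 3 were higher and 0 lower, with a median of 0.22. The 3 are 12% of the list, beside 1.44% higher over all genes past the floor. Klf4, a zinc-finger factor needed for monocytes, read 8.46 in cMoP and 6.58 in MDP, which is 3.68-fold. CDP (8.79) and both monocytes (9.47 in classical and 9.70 in nonclassical) also had high Klf4, so MDP was the only low array. Id1, an inhibitor of E proteins, read 7.52 in cMoP and 6.23 in MDP, and Cebpb, a C/EBP factor of mature myeloid cells, read 8.09 in cMoP and 6.99 in MDP.

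The other factors of this list stayed within the threshold. Spi1, which encodes PU.1, read 10.68 in cMoP and 10.16 in MDP, and Irf8 read 10.45 in cMoP and 10.54 in MDP. Cebpa, needed for all granulocyte-monocyte progenitors, read 8.69 in cMoP and 8.36 in MDP. Cebpd read 8.29 in cMoP and 7.70 in MDP, Cebpe 7.24 in cMoP and 6.60 in MDP, and Gfi1, a repressor that favours granulocytes, 6.41 in cMoP and 6.15 in MDP. Of the remaining members Xbp1 (9.17 in cMoP and 8.38 in MDP) had the largest positive difference under the threshold and Jun (8.69 in cMoP and 9.46 in MDP) the largest negative one. Zeb2 read 9.85 in cMoP and 10.28 in MDP, Runx1 9.71 in cMoP and 10.17 in MDP, and Stat3 8.32 in cMoP and 8.27 in MDP.

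Factors of stem and multipotent cells pointed the other way. Of 18 past the floor 0 were higher and 6 lower, 16 had a negative difference, and the median was -0.69. Satb1, a chromatin organiser of lymphoid-competent progenitors, read 8.80 in cMoP and 10.70 in MDP. Sox4 read 7.16 in cMoP and 8.94 in MDP, and Erg, an ETS factor needed for stem cells, read 8.34 in cMoP and 9.68 in MDP. Hox factors and their cofactor were among them, with Meis1 at 6.43 in cMoP and 7.92 in MDP, Hoxa9 at 6.97 in cMoP and 8.22 in MDP, and Hoxa5 at 5.09 in cMoP and 6.56 in MDP. Factors of proliferating progenitors differed by less, with Myb at 11.11 in cMoP and 11.45 in MDP and Myc at 11.46 in cMoP and 12.21 in MDP. Mef2c (9.04 in cMoP and 9.82 in MDP) and Bcl11a (8.39 in cMoP and 9.29 in MDP) were lower without reaching the threshold, while Gata2 (6.53 in cMoP and 6.52 in MDP) and Lyl1 (9.65 in cMoP and 9.70 in MDP) were level.

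The lymphoid and dendritic factors had 14 members past the floor, 0 higher and 3 lower, with a median of -0.47. Of these 14, 3 passed through the MDP array alone and so had to be lower in cMoP. The 11 past the floor on both arrays had a median of -0.42. Aff3, a nuclear protein of the lymphoid lines, read 6.10 in cMoP and 8.47 in MDP, at least 4.59-fold lower. Tcf4, the E protein that defines plasmacytoid dendritic cells, read 8.02 in cMoP and 9.09 in MDP, and Ikzf2 read 6.19 in cMoP and 7.21 in MDP. Neither Tcf4 nor Ikzf2 passed the threshold after centring on the median of all probe sets. Id2, which marks the dendritic branch, read 5.61 in cMoP and 6.29 in MDP, and Batf3 read 6.44 in cMoP and 6.61 in MDP. Ikzf1 (9.55 in cMoP and 10.03 in MDP) and Notch1 (8.04 in cMoP and 8.58 in MDP) were lower by about as much as the list's median. Nfil3 alone was above 0, at 8.41 in cMoP and 8.31 in MDP.

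Genes of stem and early progenitor cells formed the list with the lowest median, -1.22. Of 21 past the floor 12 were lower and 1, Nkg7, was higher. The gate gene Flt3 is among the 12, and 4 of the 21 passed through the MDP array alone, while the 17 past the floor on both arrays had a median of -1.22 as well and all 36 measured members one of -0.46. Angpt1, a ligand of the Tie2 receptor made by stem cells, read 5.04 in cMoP and 8.01 in MDP, at least 3.34-fold lower. Cd27, a receptor of the tumour necrosis factor family found on early progenitors and lymphocytes, read 7.90 in cMoP and 10.15 in MDP. Adgrg1, which encodes the adhesion receptor GPR56, read 7.90 in cMoP and 10.05 in MDP. Muc13 (7.75 in cMoP and 8.99 in MDP), Gcnt2 (6.90 in cMoP and 8.12 in MDP), Ifitm1 (8.66 in cMoP and 9.95 in MDP) and Zfp521 (5.55 in cMoP and 6.70 in MDP) completed the lower members, with Flt3, Ctla2a, Sox4, Meis1 and Hoxa9. Cd34, the sialomucin of early progenitors, was high in both, at 10.82 in cMoP and 11.51 in MDP.

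Lymphoid priming means the low-level use of lymphocyte genes by multipotent progenitors. Of 18 genes of this list past the floor 8 were lower in cMoP and 0 higher, 17 had a negative difference, and the median was -0.88. Of these 18, 6 passed through the MDP array alone and so had to be lower in cMoP, and the 12 past the floor on both arrays had a median of -0.61. The lower genes were Flt3, which the gate selects, Dntt, Ctla2a, Gimap6, Il7r, Cd27, Satb1 and Tespa1. Dntt, the terminal transferase that adds bases to antigen receptor joints, read 3.89 in cMoP and 9.61 in MDP. That difference is the most negative of all genes, but the cMoP value is under the floor, and as a bound Dntt was at least 10.1-fold lower, beside 20.4-fold for Flt3. Its other values were 8.41 in CDP, 4.09 in the classical monocyte and 4.25 in the nonclassical monocyte, so cMoP lay with the monocytes and apart from both CD135+ progenitors. Il7r, the interleukin 7 receptor, read 4.20 in cMoP and 6.56 in MDP, where the MDP value was itself only just past the floor.

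In several others of that list cMoP was under the floor. Ctla2a, a cysteine protease inhibitor, read 4.96 in cMoP and 7.47 in MDP, at least 2.31-fold lower. Gimap6, a small GTPase of lymphocytes, read 4.99 in cMoP and 7.44 in MDP, and Tespa1, an adaptor of T cell receptor signalling, read 6.05 in cMoP and 7.93 in MDP. Genes of mature lymphocytes were mostly under the floor in both progenitors. Of 19 measured B cell genes 4 reached the floor in cMoP and 3 in MDP, and of 22 T and NK cell genes 2 reached it in each. None of these was past the threshold.

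Dendritic cell genes differed by single members. The plasmacytoid list had 15 members past the floor, 0 higher and 3 lower, with a median of -0.03, and its lower members were Dntt, Tlr7 and Tcf4. Tlr7, a receptor for single-stranded RNA, read 4.36 in cMoP and 6.41 in MDP, at least 1.11-fold lower, with 8.62 in the classical monocyte. The conventional list had 19, of which 1 was higher and 4 lower, with a median of -0.28. Of these 19, 3 passed through the MDP array alone and 1 through the cMoP array alone. The 15 past the floor on both arrays had a median of -0.17. The gate gene Flt3 is among the 4. Clec9a, a receptor for dead cells on cross-presenting dendritic cells, read 5.11 in cMoP and 7.30 in MDP, and 9.86 in CDP. Dpp4 (7.72 in cMoP and 9.17 in MDP) and Nav1 (7.29 in cMoP and 8.46 in MDP) were lower too, and Naaa, an acid amidase, was higher at 7.54 in cMoP and 6.40 in MDP.

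Antigen presentation by class II molecules had 14 genes past the floor, 0 higher and 3 lower, with a median of -0.14. Of these 14, 3 passed through the MDP array alone, Cd74 and Lgmn among them, and so had to be lower in cMoP. The 11 past the floor on both arrays had a median of -0.05. Cd74, the invariant chain, read 4.88 in cMoP and 6.53 in MDP, and 7.97 in CDP, 7.53 in the classical and 9.79 in the nonclassical monocyte, so cMoP was lowest of the 5. H2-Ob, part of a modulator of peptide loading, read 6.691 in cMoP and 8.004 in MDP, and Lgmn, a lysosomal protease, read 6.00 in cMoP and 7.07 in MDP. Class I presentation and the immunoproteasome had 18 members past the floor with 0 higher, 0 lower and a median of 0.02. B2m, the light chain of class I molecules, read 12.75 in cMoP and 12.85 in MDP.

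Receptors for growth factors and cytokines were near level as a list, with 30 past the floor, 1 higher, 3 lower and a median of -0.08. Ifngr1, the ligand-binding chain of the interferon gamma receptor, read 10.40 in cMoP and 9.35 in MDP. The lower members were Flt3, Il7r and Il18rap, the last a chain of the interleukin 18 receptor at 6.36 in cMoP and 7.40 in MDP. Csf3r, the receptor for granulocyte colony-stimulating factor, read 8.96 in cMoP and 8.64 in MDP, and Csf2rb, the shared chain of the GM-CSF receptor, read 9.65 in cMoP and 8.94 in MDP. Among 21 inhibitors and adaptors of cytokine signals 0 were higher and 1 lower. That gene, Dusp1, a phosphatase of stress kinases, read 7.18 in cMoP and 8.60 in MDP.

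Receptors for microbes were higher by members rather than as families. The toll-like receptor list had 20 members past the floor, of which 2 were higher and 1 was lower, and its median was 0.24. Tlr4, the receptor for bacterial lipopolysaccharide, read 7.30 in cMoP and 5.37 in MDP, at least 2.04-fold higher, and Irak3, an inhibitory kinase of the same pathway, read 8.71 in cMoP and 7.59 in MDP. Cd14, the co-receptor of Tlr4, read 6.77 in cMoP and 6.15 in MDP, and Ly96, its partner chain, read 6.66 in cMoP and 6.85 in MDP. C-type lectin receptors had 10 past the floor, 2 higher and 1 lower, with a median of 0.27. The higher members were Clec4a2 and Clec5a. Clec5a, an activating receptor that signals through adaptors such as Tyrobp, read 9.19 in cMoP and 6.74 in MDP. Inflammasome and NOD-like receptor genes had 20 past the floor with 1 higher, Naip2, a sensor of bacterial secretion systems, at 8.62 in cMoP and 7.31 in MDP.

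Fc receptors and paired receptors included some of the larger differences. Fcgr3, an activating receptor for immunoglobulin G, read 10.83 in cMoP and 8.10 in MDP, which is 6.63-fold, and was as high in the classical monocyte (10.97) and the nonclassical monocyte (10.79), with the lowest value in CDP (6.80). Fcgr3 and Fcgr4 are neighbours on the chromosome, and their shared chain Fcer1g read 11.90 in cMoP and 11.62 in MDP. The Fc receptor and complement list had 3 of 11 past the floor higher, the last being Itgb2, the integrin chain CD18, at 8.34 in cMoP and 7.25 in MDP. Its alpha chain Itgam did not follow, with 7.46 in cMoP and 7.45 in MDP.

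Paired activating and inhibitory receptors had 27 members past the floor, 6 higher and 2 lower, with a median of 0.50 and 22 positive differences. Of these 27, 6 passed through the cMoP array alone and so had to be higher there. The 21 past the floor on both arrays had a median of 0.39. Receptors for sialic acid were among the higher ones, with Siglece at 8.38 in cMoP and 7.03 in MDP and Siglecg at 8.36 in cMoP and 7.12 in MDP, beside Mcemp1 and Trem3. The related Cd33 was lower, at 6.87 in cMoP and 7.90 in MDP, as was Cd244a, a receptor of the SLAM family, at 6.31 in cMoP and 7.44 in MDP. Pilrb1 and Lilra6 passed the threshold from under the floor in MDP, with Pilrb1 at 6.45 in cMoP and 5.22 in MDP and Lilra6 at 6.70 in cMoP and 5.51 in MDP.

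Genes of migration and adhesion had few calls. Chemoattractant receptors and ligands had 19 past the floor, 2 higher and 2 lower, with a median of 0.05. Ltb4r1, the leukotriene B4 receptor, read 8.55 in cMoP and 6.86 in MDP, and Gpr141, an orphan receptor, read 8.73 in cMoP and 6.85 in MDP. Ccl3, a chemokine, read 7.56 in cMoP and 9.01 in MDP, and P2ry14, a receptor for UDP-sugars, read 5.24 in cMoP and 6.37 in MDP. Among 39 integrins, selectins and adhesion receptors 3 (7.69%) were higher and 1 (2.56%) lower. The higher ones were Adgre5, Itga1 (8.41 in cMoP and 7.22 in MDP) and Itgb2, and the lower one was Adgrg1. Cx3cr1, the fractalkine receptor, read 8.57 in cMoP and 9.03 in MDP.

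Enzymes that make and buffer oxidants were higher as a list. Of 32 past the floor 8 were higher, 0 lower and 28 above 0, with a median of 0.33. Cybb and Cyba, which encode the membrane subunits of the phagocyte oxidase, were both higher, with Cybb at 10.46 in cMoP and 8.01 in MDP and Cyba at 10.33 in cMoP and 9.07 in MDP. The cytosolic subunits differed by less, with Ncf4 at 9.17 in cMoP and 8.49 in MDP and Ncf1 at 9.73 in cMoP and 9.41 in MDP. Gsr, which regenerates glutathione, read 10.61 in cMoP and 9.09 in MDP, Gpx3, an extracellular peroxidase, 7.87 in cMoP and 6.00 in MDP, and Gstm1 11.74 in cMoP and 9.80 in MDP. Hmox1, the heme oxygenase, read 6.87 in cMoP and 5.75 in MDP.

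Carbon metabolism followed in part. The glycolysis and pentose phosphate list had 24 members past the floor, of which 4 were higher and 0 were lower, and its median was 0.35. Pgd, the pentose phosphate enzyme that makes NADPH, read 11.02 in cMoP and 9.69 in MDP. Ldhb read 8.90 in cMoP and 7.55 in MDP, Pgam1 11.21 in cMoP and 10.15 in MDP, and Pfkfb4 6.54 in cMoP and 5.51 in MDP. None of 40 respiratory chain genes passed the threshold, yet 37 of them had a positive difference and their median was 0.26. The 77 mitochondrial ribosomal protein genes had 0 past the threshold in either direction, 70 positive differences and a median of 0.32, whereas 58 cytosolic ribosomal protein genes had a median of -0.02. The cholesterol and fatty acid synthesis list had 29 past the floor, 0 higher and 2 lower, 13 positive and 11 negative differences and a median of 0. Its lower members were the desaturase genes, with Fads2 at 6.09 in cMoP and 8.10 in MDP and its neighbour Fads1 at 7.03 in cMoP and 8.04 in MDP.

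Lysosomal and lipid genes leaned to the positive side. The lysosome list had 42 past the floor, 4 higher and 1 lower, with a median of 0.37. The higher genes were Cd63 and genes that encode cathepsins, with Ctsc at 10.12 in cMoP and 8.80 in MDP, Ctsh at 9.94 in cMoP and 8.80 in MDP, and Ctsb at 10.15 in cMoP and 9.08 in MDP. The lipid list had 17 past the floor with 4 higher and 1 lower. Olr1, a scavenger receptor for oxidised lipoprotein, read 6.90 in cMoP and 4.69 in MDP, Lpl, lipoprotein lipase, 7.37 in cMoP and 5.87 in MDP, and Plin2, a coat protein of lipid droplets, 9.56 in cMoP and 8.47 in MDP. Extracellular proteins and proteinase inhibitors had 23 past the floor, 5 higher and 2 lower. Lgals3, galectin 3, read 9.04 in cMoP and 7.39 in MDP, Serpinb10 6.98 in cMoP and 4.49 in MDP, and Mmp19 7.62 in cMoP and 6.46 in MDP.

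Genes of the dividing cell had few calls. None of 49 DNA replication genes and none of 46 mitosis genes passed the threshold, with medians of 0.13 and -0.11. Pcna, the replication clamp, read 12.23 in cMoP and 12.24 in MDP, and Cdk1, the mitotic kinase, read 10.26 in cMoP and 10.10 in MDP. None of 21 cyclin D, inhibitor and quiescence genes passed, and the nearest were Cdk6, with 10.55 in cMoP and 11.45 in MDP, and Gadd45b, with 8.04 in cMoP and 7.14 in MDP. None of 43 ribosome biogenesis genes passed, with a median of -0.03. Histone genes had 22 past the floor, 2 higher, H4c3 (10.29 in cMoP and 8.38 in MDP) and H2bc3 (9.34 in cMoP and 8.30 in MDP), and a median of 0.49. After centring on the median of all probe sets the medians of the mitosis and ribosome biogenesis lists turned positive, at 0.01 and 0.08.

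Survival and signalling genes had single calls. Bcl2, the inhibitor of cell death, read 9.84 in cMoP and 11.19 in MDP, the 1 lower gene of 19 past the floor in its list, while Mcl1 read 9.92 in cMoP and 10.29 in MDP. Fyn, a kinase of the Src family, was the 1 call among 27 kinases and scaffolds, at 6.16 in cMoP and 7.71 in MDP. Membrane-cytoskeleton linkers were lower, with Marcks at 6.12 in cMoP and 8.46 in MDP, Marcksl1 at 8.50 in cMoP and 10.06 in MDP, and Plek, pleckstrin, at 8.03 in cMoP and 9.43 in MDP. These were the 3 lower genes of 40 in the cytoskeleton list, whose median was 0.19. Dstn, an actin-depolymerising protein outside the list, was higher, at 11.18 in cMoP and 9.12 in MDP.

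Interferon-stimulated genes had 39 members past the floor, 1 higher and 3 lower, with a median of -0.23. Of these 39, 5 passed through the MDP array alone, Rtp4 and Slfn8 among them, and so had to be lower in cMoP. Through the cMoP array alone 2 passed, and the 32 past the floor on both arrays had a median of -0.12. Rtp4 read 4.99 in cMoP and 7.07 in MDP, and Slfn8 6.21 in cMoP and 7.61 in MDP, while its relative Slfn2 ran the other way at 9.38 in cMoP and 7.69 in MDP. The third lower member was Ifitm1. Immediate early genes had 27 past the floor, with Klf4 higher, Dusp1 lower and a median of -0.25. Chromatin modifying enzymes leaned low as a list, with 0 higher and 3 lower of 47, 40 negative differences and a median of -0.32. The lower ones were Tet1, which oxidises methylated cytosine (7.18 in cMoP and 9.22 in MDP), Hmga2 (6.28 in cMoP and 7.84 in MDP) and Kmt2a, a histone methyltransferase (8.47 in cMoP and 9.50 in MDP). Hmga2 stands in this list although it is a DNA-binding protein and not an enzyme. Kmt2a no longer passed the threshold after centring on the median of all probe sets.

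The cumulative plot sets these small but broad shifts beside probe sets that the platform's annotation table used here does not list. Of 3387 such probe sets past the floor, with identifiers below the first listed one, 714 (21.1%) were lower in cMoP and 55 (1.62%) higher, and their median difference was -0.31. The median of the whole block was 5.70 in cMoP and 6.25 in MDP, and 6.04 in CDP, 6.15 in the classical and 6.30 in the nonclassical monocyte, so cMoP was lowest. The 1933 other unlisted probe sets past the floor had a median of -0.02, with 68 (3.52%) lower. The sources used here do not say what the block measures, and its part in the differences of named genes was not tested.

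**Figure D4:**
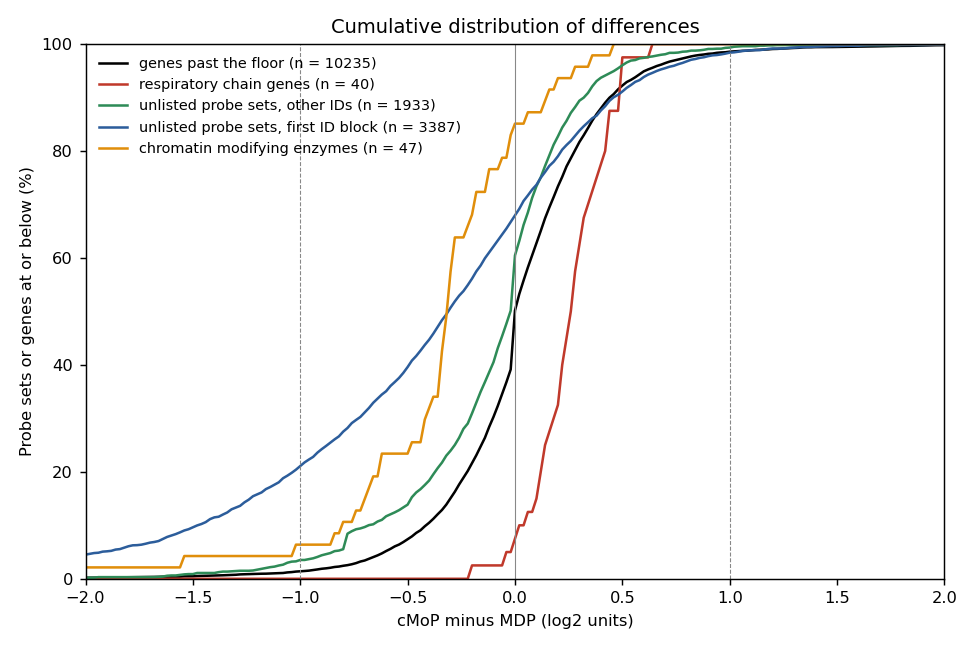
Share of genes or probe sets (percent) whose cMoP minus MDP difference is at or below the value on the horizontal axis (log2 units). Curves are for all 10235 genes past the floor, 40 respiratory chain genes, 47 members of the chromatin modifying enzyme list and both groups of unlisted probe sets. The respiratory chain curve lies right of all genes (median 0.26), the chromatin curve left (median -0.32), and the first block of unlisted probe sets has 21.1% at or below -1.

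In both small RNA families counted here the called genes were all lower in cMoP, while Rmrp, an RNA gene outside them, was higher. MicroRNAs are short RNAs that guide the repression of matching transcripts through their seed. Of 300 microRNA genes measured 70 passed the floor, 0 were higher and 6 lower (8.57%), with a median of -0.03. Small nucleolar and Cajal body RNAs had 46 past the floor, 0 higher and 4 lower (8.7%), with a median of -0.27. The probe sets are named for microRNA genes, and the sources used here do not say whether they report mature RNA or its precursors. Mir17 and Mir18 are neighbours in one cluster, which is known for driving growth of blood progenitors. Mir17 read 7.01 in cMoP and 8.88 in MDP, and Mir18 read 6.43 in cMoP and 8.56 in MDP. Mir17hg, the annotated host transcript of the cluster, lay under the floor at 5.70 in cMoP and 5.77 in MDP, as did Mir20a (5.06 in cMoP and 6.14 in MDP) and Mir19b-1 (4.80 in cMoP and 6.05 in MDP).

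The mature sequences of the 6 lower microRNA genes, from RefSeq (GRCm38.p6), are shown because they are what these genes produce, 5′ to 3′ with the seed (bases 2 to 8) in capitals. All lie on the plus strand. The 5p arm of Mir17 is at chr14:115043684-115043706 and its 3p arm at chr14:115043721-115043742, and those of Mir18 are at chr14:115043867-115043889 and chr14:115043908-115043929. The arms of Mir103-2 are at chr2:131288066-131288088 and chr2:131288103-131288125, and those of Mir142 at chr11:87756867-87756887 and chr11:87756903-87756925. The arms of Mir128-1 are at chr1:128202369-128202389 and chr1:128202404-128202424, and those of Mir181b-2 at chr2:38853845-38853868 and chr2:38853883-38853904.
miR-17-5p: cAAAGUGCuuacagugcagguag
miR-17-3p: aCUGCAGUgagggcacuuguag
miR-18a-5p: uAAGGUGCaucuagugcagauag
miR-18a-3p: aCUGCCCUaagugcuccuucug
miR-103-2-5p: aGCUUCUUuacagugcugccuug
miR-103-3p: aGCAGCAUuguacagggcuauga
miR-142a-5p: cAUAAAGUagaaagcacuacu
miR-142a-3p: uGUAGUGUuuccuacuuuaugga
miR-128-1-5p: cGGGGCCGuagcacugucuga
miR-128-3p: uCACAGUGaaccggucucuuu
miR-181b-5p: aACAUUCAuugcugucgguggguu
miR-181b-2-3p: cUCACUGAucaaugaaugcaaa
No seed occurs more than once in this set, so the lower genes did not share a seed. Mir103-2 read 6.36 in cMoP and 8.22 in MDP, while Pank2, the gene it lies in, read 8.95 in cMoP and 9.23 in MDP. Mir142, a microRNA found throughout blood cells, read 6.52 in cMoP and 7.94 in MDP. Mir128-1 (5.69 in cMoP and 6.78 in MDP) and Mir181b-2 (5.79 in cMoP and 6.82 in MDP) were under the floor in cMoP. Both passed it through the MDP array alone and so had to be lower in cMoP.

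The called genes were also read on the 3 remaining arrays. The 147 higher genes had median levels of 8.87 in cMoP and 7.20 in MDP, with 7.52 in CDP, 9.56 in the classical and 8.39 in the nonclassical monocyte. The highest array was cMoP for 57 of them (38.8%), the classical monocyte for 62 (42.2%) and the nonclassical monocyte for 28 (19%). Over all genes past the floor these shares were 25.9%, 18.1% and 22.5%, and a gene higher in cMoP than in MDP is more likely to be highest there by construction. The 143 lower genes had medians of 6.43 in cMoP and 7.95 in MDP, with 7.89 in CDP, 6.75 in the classical and 6.99 in the nonclassical monocyte. For 70 of them (49%) cMoP was the lowest of all arrays, beside 15.3% over all genes past the floor, and a gene lower in cMoP than in MDP is more likely to be lowest there by construction.

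The difference between the classical monocyte and CDP shares no array with cMoP minus MDP, and it is given as a description. Over the higher genes it had a median of 1.65, with 104 (70.7%) at or above 1 log2 unit and 1 at or below -1. Over the lower genes the median was -0.89, with 61 (42.7%) at or below -1 and 11 (7.69%) at or above 1. Over all genes past the floor the median was 0, with 5.49% up and 2.34% down. Set against CDP, the nonclassical monocyte had 63 up and 26 down among the higher genes, and 30 up and 52 down among the lower ones. These are 42.9% up and 17.7% down of the higher genes and 21% up and 36.4% down of the lower ones, beside 6.47% up and 12.2% down over all genes past the floor.

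**Figure D5:**
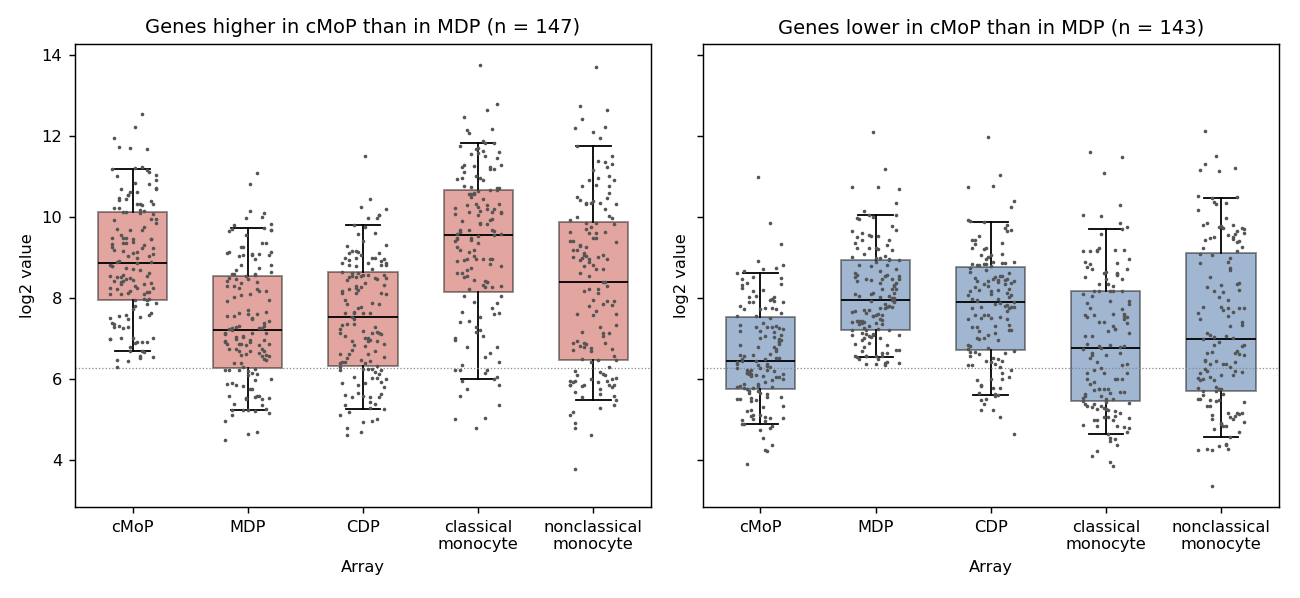
Log2 values on each of the 5 arrays of the 147 genes higher in cMoP than in MDP (left) and the 143 lower ones (right). Points are genes, boxes span the quartiles with the median as a line, whiskers run from the 5th to the 95th percentile, and the dotted line is the floor. The medians of the higher genes are 8.87 in cMoP, 7.20 in MDP and 9.56 in the classical monocyte.

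The cMoP array held the highest value by a clear margin for part of the higher genes. In 31 of the higher genes cMoP stood at least 1 log2 unit above every other array, led by Hdc, Ms4a3 and Mgst2. Ms4a3 read 11.94 in cMoP against 9.65 in MDP, 7.05 in CDP, 7.41 in the classical and 5.68 in the nonclassical monocyte. Elane read 12.55 in cMoP, 11.10 in MDP, 8.99 in CDP, 10.19 in the classical and 6.12 in the nonclassical monocyte, and Nkg7 11.70 in cMoP, 9.97 in MDP, 7.77 in CDP, 7.16 in the classical and 6.00 in the nonclassical monocyte. Mgam, a maltase-glucoamylase that follows Clec5a in the order of genes past the floor, read 6.97 in cMoP and from 4.95 to 5.11 on the others.

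The reverse held for 28 genes, where cMoP lay at least 1 log2 unit under every other array. Marcks read 6.12 in cMoP, 8.46 in MDP, 9.06 in CDP, 9.15 in the classical and 10.47 in the nonclassical monocyte. Wfdc17, a secreted protein with a whey acidic protein domain, read 6.04 in cMoP, 8.21 in MDP, 8.12 in CDP, 11.49 in the classical and 9.15 in the nonclassical monocyte. Tspan13, a tetraspanin, read 6.49 in cMoP, 8.66 in MDP, 8.51 in CDP, 7.93 in the classical and 9.97 in the nonclassical monocyte. Of the 143 lower genes 38 (26.6%) were at least 1 log2 unit higher in the classical monocyte than in cMoP, beside 5.77% of all genes past the floor. The call and this count use the same cMoP value, so nothing is read from the gap between these shares. Examples are Rtp4 with 9.24 in the classical monocyte, Ccl3 with 10.05 and Cd33 with 9.19.

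Adjacent called genes were few. Going by the gene order of the RefSeq table (GRCm38.p6), 8 pairs of neighbours past the floor were both higher and 7 pairs both lower, and no run was longer than 2. The order held 10227 genes past the floor, of which 147 were higher and 143 lower. Genes under the floor were left out, so a pair can have such genes between its members. No expected number of pairs was computed, so nothing is read from these counts. Among the higher pairs S100a8 lies beside S100a9, Ms4a6d beside Ms4a3, Gstm1 beside Gstm4 (a difference of 1.33), and Siglecg beside Nkg7. Hadh (1.25) lies beside Sgms2 and Tom1 (1.23) beside Hmox1. The lower pairs included Heg1 (-1.55) with Muc13, Aspn (-1.39) with Omd (-1.36), Maml2 (-1.22) with Phxr4 (-1.95), Mc5r (-1.94) with Tcf4, and Snora75 (-1.33) with Gm24148 (-1.36). Gstm1 and Gstm4 are close relatives, and how far their probe sets share signal was not tested.

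Promoter sequence was compared over windows of 300 bases, 250 before to 50 after the first RefSeq start of each gene. A window was found for 112 of the higher genes, 104 of the lower genes and 8292 of all genes past the floor. The C/EBP motif, TTGCNNAA on either strand, was present in 18.8% of the higher genes, 8.65% of the lower genes, 7.95% of all genes past the floor and 10.8% of all 27025 RefSeq promoters. The PU.1 motif, GAGGAAG, was in 23.2% of the higher genes and 22.1% of the lower genes, with 13.7% of all genes past the floor and 13.5% of all promoters. The RUNX motif (TGTGGT) was in 22.3% of higher, 15.4% of lower and 12.3% of all genes past the floor, with 16.9% of all promoters. For KLF (CCACACCC) the shares were 8.04% of higher, 4.81% of lower, 3.85% of all genes and 3.57% of all promoters. For IRF (GAAANNGAA) they were 12.5% of higher, 7.69% of lower, 6.89% of all genes and 8.57% of all promoters. The motif of GATA factors, AGATAA, was in 10.7% of higher, 10.6% of lower, 6.05% of all genes and 11.4% of all promoters. The MEIS motif (TGACAG) was in 22.3% of higher, 9.62% of lower, 16.6% of all genes and 19.3% of all promoters. MYB (CAACTG) was in 11.6% of higher, 17.3% of lower, 10.3% of all genes and 13.6% of all promoters. The E protein motif (CAGCTG) was in 9.82% of higher, 15.4% of lower, 14.1% of all genes and 16.1% of all promoters. MYC (CACGTG) was in 7.14% of higher, 10.6% of lower, 10.6% of all genes and 7.24% of all promoters, and STAT (TTCCNGGAA) in 0.893% of higher, 0% of lower, 1.3% of all genes and 1.15% of all promoters. Both strands were searched for each, and no motif contains another, though matches can overlap. These shares are descriptions of letters in a window, and no match is shown to be bound.

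The promoters printed are those of the 4 genes with the largest positive differences that hold a C/EBP match, followed by that of the gene with the largest negative difference that holds a PU.1 match. They are RefSeq windows on GRCm38.p6, 5′ to 3′ along the gene's strand, with C/EBP and PU.1 matches in capitals. Gda lies at chr19:21472612-21472911 (minus), Lcn2 at chr2:32387690-32387989 (minus), Fcgr3 at chr1:171059354-171059653 (minus), Fcnb at chr2:28084829-28085128 (minus) and Wfdc17 at chr11:83703806-83704105 (plus).
Gda: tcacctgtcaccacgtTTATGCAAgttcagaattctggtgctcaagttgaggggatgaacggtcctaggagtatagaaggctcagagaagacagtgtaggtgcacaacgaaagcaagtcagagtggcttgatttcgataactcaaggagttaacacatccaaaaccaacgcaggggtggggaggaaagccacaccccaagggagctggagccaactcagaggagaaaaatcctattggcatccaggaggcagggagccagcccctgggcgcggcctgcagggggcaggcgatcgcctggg
Lcn2: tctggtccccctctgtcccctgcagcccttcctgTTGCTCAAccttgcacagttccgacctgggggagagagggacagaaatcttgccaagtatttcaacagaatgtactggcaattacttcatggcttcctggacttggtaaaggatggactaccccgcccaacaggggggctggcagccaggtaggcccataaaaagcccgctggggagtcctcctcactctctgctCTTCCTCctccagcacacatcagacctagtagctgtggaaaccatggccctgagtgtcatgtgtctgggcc
Fcgr3: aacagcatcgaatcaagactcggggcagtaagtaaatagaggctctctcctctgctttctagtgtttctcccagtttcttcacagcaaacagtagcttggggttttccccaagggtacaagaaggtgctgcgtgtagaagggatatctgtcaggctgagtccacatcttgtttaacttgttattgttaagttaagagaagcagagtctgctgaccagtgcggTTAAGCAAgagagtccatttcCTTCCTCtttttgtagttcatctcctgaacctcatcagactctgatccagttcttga
Fcnb: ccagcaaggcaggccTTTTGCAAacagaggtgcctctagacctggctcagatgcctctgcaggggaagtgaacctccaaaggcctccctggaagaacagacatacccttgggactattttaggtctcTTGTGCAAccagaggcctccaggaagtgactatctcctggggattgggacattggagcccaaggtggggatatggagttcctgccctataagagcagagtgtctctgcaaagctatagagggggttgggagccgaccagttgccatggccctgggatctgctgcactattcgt
Wfdc17: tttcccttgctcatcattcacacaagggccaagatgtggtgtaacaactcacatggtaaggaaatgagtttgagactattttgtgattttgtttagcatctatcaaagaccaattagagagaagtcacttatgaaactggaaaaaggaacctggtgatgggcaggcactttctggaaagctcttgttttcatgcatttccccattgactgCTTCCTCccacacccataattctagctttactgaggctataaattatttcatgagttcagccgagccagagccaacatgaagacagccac
Gda and Fcnb have C/EBP matches alone, Lcn2 and Fcgr3 have C/EBP and PU.1 matches, and Wfdc17 has a PU.1 match without a C/EBP one.

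Markers of other marrow cells reached the floor in part. Of all 19938 named genes 9946 reached it in cMoP and 9965 in MDP, so reaching the floor does not show that such cells were present. Of 17 neutrophil genes measured 7 reached it in cMoP (Csf3r, Cxcr2, Mmp8, Cd177, G0s2, Cxcr4 and Camp) and 6 in MDP, the same without Camp, of 16 erythroid genes 2 in cMoP and 3 in MDP, and of 15 megakaryocyte genes 6 in each. Of 21 genes of basophils, mast cells and eosinophils 6 reached it in cMoP and 5 in MDP, and of 17 macrophage genes 3 in each. The mean over each list differed little, with 6.29 in cMoP and 6.23 in MDP for neutrophil genes and 5.62 in cMoP and 5.54 in MDP for basophil, mast cell and eosinophil genes. Mcpt8, a basophil protease, was past the floor in both, at 8.70 in cMoP and 8.95 in MDP, and the part of such cells in the higher Hdc value was not tested.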

How the data were processed

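RNA of 5 sorted marrow populations was measured on 1 array each. The deposited table holds log2 values for 35556 probe sets, from 1.59 to 14.24; the base was read from the values, and the sources used here do not give background correction, normalization, summarization or software. Per the labels' protocols, an RNAqueous-Micro kit was used for extraction and Nugen Encore for biotin labelling. The platform's table gave 1 symbol to 21789 probe sets, several to 1621 and none to 12146, and 21698 of the 21789 matched a RefSeq table (GRCm38.p6, used for names and gene order). For 999 genes with several probe sets, that of highest mean level across the 5 arrays stands for the gene. Differences are the cMoP value minus the MDP value and were computed in Python 3.11.15 with pandas 2.3.3 and numpy 2.4.6; the counting was tested on simulated data. There are no replicates, so no p-value or interval is given, and precision is limited by having 1 array a side.

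The members and the 50 gene lists (1259 of 1417 distinct genes measured, 947 past the floor) were chosen with earlier results of these data known. Named genes come from the 30 largest differences on each side, list members past 1 log2 unit, the measured genes of the gate list and of the 3 transcription factor lists, defining markers of other cell types and runs of neighbouring called genes; others named were chosen after their values were seen. Alternatives changed the scaling, the floor, the threshold and the probe set per gene.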

Additional observations from a re-analysis of the deposited data

Results flagged for a closer look

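Probe sets that name no single gene also differed between the progenitors. Those with several symbols had 7 higher and 8 lower in cMoP than in MDP by at least 1 log2 unit, of 816 past the floor. Those with no listed symbol had 68 higher and 782 lower in cMoP, of 5320 past the floor, so 1.28% were higher and 14.7% lower. They are the unlisted probe sets already described, not a further set. Of the 782, 714 lie in the block with identifiers below the first listed one, where 21.1% were lower. Of the other unlisted probe sets 3.52% were lower. All probe sets without a single gene stand outside the count of named genes, and there is no control array to set them against.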

How the results depend on the processing

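The count of genes higher in cMoP (147) stayed within 1.5 times under every alternative except the thresholds of 1.5-fold (565) and 4-fold (23). It was 161 with quantile normalization, of which 141 were shared. The count lower in cMoP (143) was 73 with the floor at the upper quartile, 564 at 1.5-fold, 20 at 4-fold, and 79 where both arrays had to reach the floor. That last alternative and centring on the median of named genes (151 higher, 141 lower) were chosen after the data were seen. Quantile normalization gave 121 lower genes, 117 of them shared. Quantile normalization moved the median of all genes past the floor by 0.10 and centring on all probe sets by 0.11, so differences near 0 have no settled sign. Centring turned the list medians of growth factor receptors (0.04), cytokine signal inhibitors (0.10), plasmacytoid dendritic cell genes (0.08), mitosis (0.01) and ribosome biogenesis (0.08) positive. Of 140 named genes past the threshold, 8 no longer passed with centring, 10 with quantile normalization and 44 with the upper-quartile floor, and 0 reversed. With centring the 8 were Cd33, Fads1, Ikzf2, Il18rap, Kmt2a, Lgmn, Sgms1 and Tcf4. With quantile normalization the 10 were Anxa5, Cd244a, Cd33, Fads1, Ifngr1, Ikzf2, Il18rap, Lgmn, Pgam1 and Sgms1. No paired analysis was possible because each population has 1 array.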
